A study of Chlorocebus sabaeus with 6 samples.

Results

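The kidney lineage transcription factors PAX2, PAX8, WT1, LHX1, SIX2, EYA1, SALL1 and OSR1 were examined in COS7 cells, because this line was established from monkey kidney. Members were chosen by gene symbol, and 7 of the 8 named genes had a row among the 18050 genes of the deposited expression table. EYA1 was not analysed here. COS7 is an SV40-transformed line of Chlorocebus sabaeus, the green monkey, with fibroblast-like growth. Cells with a knockout of ATL2 and ATL3 (DKO, 3 samples) were set against COS7 cells of genotype WT (3 samples). ATL2 and ATL3 encode atlastins, GTPases that join tubules of the endoplasmic reticulum. All cells were grown in DMEM with fetal bovine serum, and no other agent or allele is named. The labels give neither the number of knockout clones nor whether samples were separate cultures, so each p-value speaks only to the spread among these samples, which may be technical. WT1 always denotes the gene, and cells of genotype WT are called wild type.

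These factors act at successive steps of kidney formation. OSR1 marks the early intermediate mesoderm, LHX1, PAX2 and PAX8 set up the nephric duct and later take part in the renal vesicle, and SIX2, EYA1, SALL1 and WT1 act in the cap mesenchyme, the pool of nephron progenitors around each ureteric bud tip. In the adult kidney PAX8 persists in tubular epithelium and WT1 in podocytes. In mice, loss of several of these genes, such as Osr1, Pax2, Lhx1, Wt1, Eya1 or Sall1, stops or reduces kidney formation.

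The libraries held 14197344 to 15693049 estimated counts, and 15277 to 15885 genes had counts in a library. Both targeted mRNAs fell in the knockout cells. ATL2 averaged 5.94 ± 1.9 FPKM in DKO cells and 30.6 ± 1.5 FPKM in wild-type cells (SD, n = 3 each; log2 fold change -2.21, SE 0.23, edgeR adjusted p = 0.00029). ATL3 averaged 4.88 ± 1.25 FPKM in DKO cells and 35.8 ± 1.36 FPKM in wild-type cells (-2.83, SE 0.18, edgeR adjusted p = 3.7e-05). FPKM is the authors' level per gene, a fragment count scaled to transcript length and library size. DKO replicate 3 stood apart from DKO replicates 1 and 2, with a mean chi-square per gene of 75.2 and 80.0 against them at equal totals, where DKO replicates 1 and 2 differed by 1.53 and the wild-type pairs by 1.82 to 3.51. Counts without that library are therefore given beside the main ones.

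Of the measured factors 3 were lower in the knockout cells and 1 was higher. PAX8 kept a high level in both genotypes but fell to 37.7% of its wild-type share of the library, LHX1 fell to 0.266% and SALL1 to 0.755%. OSR1 rose 1.88-fold from a low level. SIX2 did not pass the test, and PAX2 and WT1 had too few counts to enter it. By edgeR's quasi-likelihood test 4 of the 5 tested members were called at an adjusted p below 0.05, 1 higher and 3 lower, where 45.5% of the 13094 genes tested were called, 23.3% higher and 22.2% lower. LHX1 and SALL1 passed the filter on low counts only through the wild-type samples, so this count of 5 members is a description. Without DKO replicate 3, 6 members entered the test, of which 2 were called higher and 3 lower, where the share called over all tested genes was 74.6% (36.0% higher, 38.6% lower).

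LHX1 encodes a LIM homeodomain factor of the nephric duct and renal vesicle. It had 0.04, 0.15 and 0.08 FPKM in DKO replicates 1, 2 and 3, against 34.62, 35.55 and 31.65 FPKM in wild-type replicates 1, 2 and 3. The estimated counts behind these levels were 2, 7 and 4 in DKO cells and 1694, 1731 and 1558 in wild-type cells. Every knockout sample lay far below every wild-type sample. On the log2 scale the difference was -8.48 (SE 0.28, edgeR adjusted p = 4.4e-06), and the share of the library in DKO cells was 0.266% of that in wild-type cells (exact 95% counting interval 0.142 to 0.455%). A decrease at least this large was fitted for 146 of the 13094 tested genes (1.12%). LHX1 overlaps another protein-coding gene in RefSeq, LOC119622100, which has no row here, and reads of the overlap cannot be told apart. The other measured members overlap no RefSeq gene. In wild-type cells LHX1 stood above 83.8% of all genes in the table by mean FPKM, and in DKO cells above 24.1%.

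PAX8 encodes a paired-domain factor that works with PAX2 in the nephric lineage and stays on in renal tubules. It was the most abundant member in both genotypes. It had 27.58, 26.12 and 31.32 FPKM in the DKO samples, against 76.21, 77.12 and 75.51 FPKM in the wild-type samples. The wild-type samples lay within 2 FPKM of each other, and the groups did not overlap. The means were 28.3 ± 2.68 FPKM in DKO cells and 76.3 ± 0.807 FPKM in wild-type cells (SD, n = 3 each), and the difference was -1.37 on the log2 scale (SE 0.12, edgeR adjusted p = 0.00015). A value at or below this was fitted for 8.9% of the tested genes. PAX8 remained a well-expressed gene after the decrease: it exceeded 81.0% of all genes in DKO cells and 92.8% in wild-type cells. DKO replicate 3 had the highest PAX8 level of the knockout samples, and without it the log2 fold change was -1.50.

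PAX2 encodes the closest relative of PAX8 among the members and differed in the other direction, at a far lower level. It had 0.19, 0.19 and 0.11 FPKM in the DKO samples, against 0.04, 0 and 0.02 FPKM in the wild-type samples. These are 10, 11 and 8 estimated counts in DKO cells and 2, 0 and 1 in wild-type cells, so each knockout sample was above each wild-type sample at a level near the limit of detection. The summed counts, 29 in DKO cells and 3 in wild-type cells, gave a ratio of shares of 9.86 (exact 95% counting interval 3.06 to 50.6). The ratio was 19.7 (3.27 to 806) without wild-type replicate 1 and 6.59 (2.04 to 33.8) without wild-type replicate 2. The gene fell under the filter on low counts. A fit without that filter put PAX2 at 3.15 on the log2 scale (SE 0.63, edgeR adjusted p = 0.0062), and there 35.6% of 17786 genes were called. Even in DKO cells the PAX2 level was below 1% of that of all PAX genes together.

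OSR1 encodes a zinc finger factor of the early intermediate mesoderm. It had 1.11, 0.81 and 0.88 FPKM in the DKO samples, against 0.56, 0.53 and 0.49 FPKM in the wild-type samples. All knockout samples were above all wild-type samples, with 76 counts in DKO cells and 42 in wild-type cells. On the log2 scale OSR1 differed by 0.91 (SE 0.21, edgeR adjusted p = 0.012), and 11.5% of the tested genes had a value at or above this. This call was lost without wild-type replicate 3 (0.86, edgeR adjusted p = 0.054) and with DESeq2 (0.90, adjusted p = 0.060).

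SALL1 encodes a zinc finger factor of the cap mesenchyme. It had 0.02, 0 and 0 FPKM in the DKO samples, against 0.5, 0.77 and 0.84 FPKM in the wild-type samples. The knockout libraries together held 1 count, in DKO replicate 1, and the wild-type libraries held 32, 49 and 54 counts. The groups were well apart although the gene was low in wild-type cells too. The share in DKO cells was 0.755% of that in wild-type cells (exact 95% counting interval 0.019 to 4.28%), and edgeR called the decrease (log2 fold change -6.57, adjusted p = 0.00017). A value at or below this was fitted for 2.41% of the tested genes, but with 1 count in DKO cells its size is poorly determined. Without DKO replicate 1 the gene was at 0 in the knockout cells and at least 14.9-fold lower, against a floor of 3 counts per library. The ratio of shares was 0.0117 without DKO replicate 3.

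SIX2 encodes the homeodomain factor that keeps nephron progenitors undifferentiated. It had 0.75, 0.7 and 0.59 FPKM in the DKO samples, against 0.56, 0.53 and 0.63 FPKM in the wild-type samples. The groups overlapped, because DKO replicate 3 lay below wild-type replicate 3. SIX2 differed by 0.28 on the log2 scale (SE 0.16, edgeR adjusted p = 0.20), and the ratio of shares was 1.18 (exact 95% counting interval 0.925 to 1.52). WT1 encodes a zinc finger factor of the progenitors and of podocytes. It had 0.05, 0.13 and 0.04 FPKM in the DKO samples, against 0.09, 0.07 and 0.07 FPKM in the wild-type samples, from 19 counts in DKO cells and 20 in wild-type cells. The groups overlapped, and the ratio of shares was 0.969 with a counting interval of 0.489 to 1.91, and 0.601 (0.229 to 1.42) without DKO replicate 2. A change within these intervals was not detectable at this depth.

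In exact two-sided permutation tests of the FPKM values, one for each of the 7 members, PAX8, LHX1, SALL1, OSR1 and PAX2 gave p = 0.1, which is the lowest value possible with groups of 3. These 5 genes did not overlap between the genotypes in FPKM. The same held for 63.2% of all tested genes, among which PAX2 is not. SIX2 gave an exact permutation p of 0.2 and WT1 an exact permutation p of 1. Counting intervals, ratios of shares and floors cover counting error only.

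**Figure D1:**
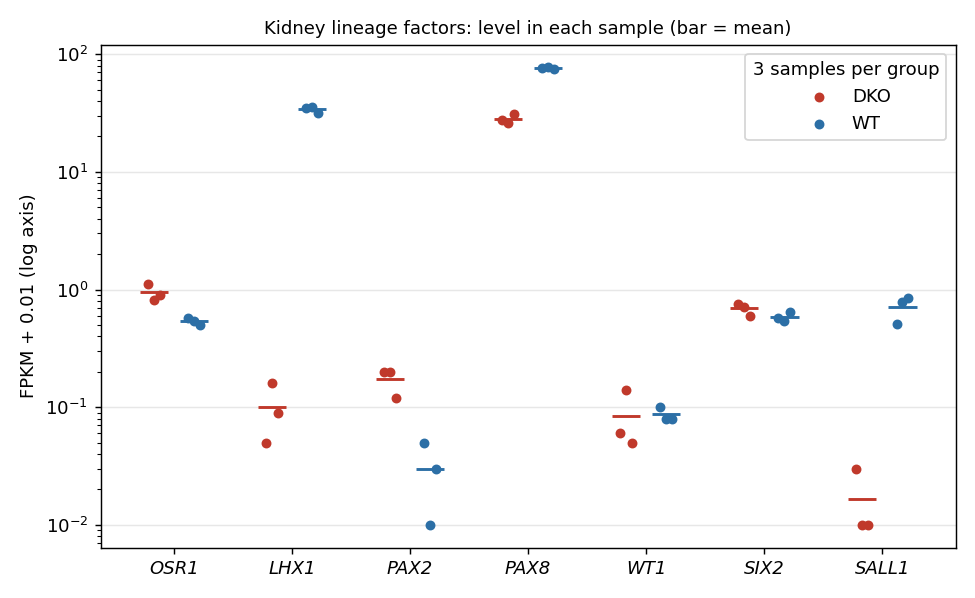
Level of each member in each sample, as FPKM + 0.01 on a log axis. Points are single samples (DKO left, wild type right, 3 each) and bars are group means. LHX1 lies at 0.04 to 0.15 FPKM in DKO samples and 31.65 to 35.55 in wild-type samples, PAX8 is the highest member in both, and SIX2 and WT1 overlap between the genotypes.

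The order of the members by level differed between the genotypes. In DKO cells PAX8 was followed by OSR1 (0.81 to 1.11 FPKM), SIX2 (0.59 to 0.75) and PAX2 (0.11 to 0.19), and then by LHX1 (0.04 to 0.15) and WT1 (0.04 to 0.13), with SALL1 last. The ranges of PAX2 and LHX1 overlapped there, as did those of LHX1 and WT1. In wild-type cells PAX8 was followed by LHX1, and next came SALL1 (0.5 to 0.84 FPKM), SIX2 (0.53 to 0.63) and OSR1 (0.49 to 0.56), whose ranges overlapped. WT1 (0.07 to 0.09) and PAX2 (0 to 0.04) were the lowest members of wild-type cells. The 7 levels summed to 28.1 to 33.0 FPKM in DKO samples and 109 to 115 FPKM in wild-type samples, and PAX8 and LHX1 made up nearly all of the wild-type sum.

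Relatives of the members differed between the genotypes in both directions. Of 34 genes in the families of the members, with the EGR genes as relatives of WT1, 27 had a row and 18 were tested. Of these 9 were called higher, 7 lower and 2 not called, with a median log2 fold change of 0.35, where the median of all tested genes was -0.01. The share called was 88.9%, against 45.5% of all tested genes (23.3% higher, 22.2% lower). Without DKO replicate 3 the calls were 9 higher and 8 lower of 19, where 74.6% of all tested genes were called. Genes that pass the filter only in the group where they are high take part in such counts.

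The other PAX genes did not follow PAX8 as a group. PAX6, an eye and islet factor, fell to 5.39 ± 0.118 FPKM in DKO cells, against 9.28 ± 0.586 in wild-type cells (log2 fold change -0.70, SE 0.12, edgeR adjusted p = 0.0036). PAX7, a factor of muscle precursors, rose to 0.233 ± 0.0231 FPKM, against 0.0333 ± 0.0231 in wild-type cells (2.63, SE 0.35, edgeR adjusted p = 0.001). PAX9, a factor of the pharyngeal pouches and teeth, rose to 0.703 ± 0.184 FPKM, against 0.187 ± 0.0802 in wild-type cells (1.95, SE 0.34, edgeR adjusted p = 0.0033). Summed over the 6 PAX genes with a row, the level was 34.8 ± 2.57 FPKM in DKO cells and 85.8 ± 1.42 FPKM in wild-type cells (SD, n = 3 each). PAX8 supplied 81.3% of this sum in DKO cells and 88.9% in wild-type cells, and PAX2 0.469% and 0.0233% in the same order of genotypes.

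Among LIM homeodomain genes LHX1 was the only tested member of the family to fall by more than 1 on the log2 scale. LMX1B, which patterns the dorsal limb and is active in podocytes, rose to 4.78, 4.72 and 6.91 FPKM in the DKO samples, against 0.82, 0.71 and 0.74 in the wild-type samples (log2 fold change 2.92, SE 0.25, edgeR adjusted p = 0.00012). LHX2 rose by 0.55 (SE 0.13, edgeR adjusted p = 0.011) and LHX6 by 1.02 (SE 0.24, edgeR adjusted p = 0.012), while ISL2 fell by 0.54 (SE 0.14, edgeR adjusted p = 0.016). Calls of these last genes depended on single libraries. LHX2 was not called without wild-type replicate 1 or 3 (edgeR adjusted p = 0.064 and 0.063), nor LHX6 without wild-type replicate 2 or 3 (0.052 and 0.053). ISL2 was not called without DKO replicate 2 (0.051) or wild-type replicate 1 or 2 (0.068 each). LHX1 supplied 0.429% of the summed level of the 9 LIM homeodomain genes with a row in DKO cells and 71.4% in wild-type cells, and LHX2 was the largest contributor in DKO cells, with 47.0%.

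Among the remaining relatives, SALL2 and OSR2 were called in the same direction as SALL1 and OSR1. SALL2 fell to 1.64, 1.76 and 2.01 FPKM in the DKO samples, against 5.42, 6 and 5.14 in the wild-type samples (log2 fold change -1.57, SE 0.15, edgeR adjusted p = 0.00021). OSR2, which acts in palate and kidney mesenchyme, rose to 1.94, 2.11 and 2.51 FPKM in the DKO samples, against 0.55, 0.47 and 0.32 in the wild-type samples (2.33, SE 0.26, edgeR adjusted p = 0.00042). The rise of OSR2 was larger in fold than that of OSR1, and this difference was not tested. OSR1 was 29.9% of the summed level of both OSR genes in DKO cells and 54.1% in wild-type cells.

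Relatives of SIX2 and EYA1, whose products form complexes with each other, went both ways. SIX4 rose to 4.39 ± 0.809 FPKM in DKO cells, against 1.7 ± 0.0458 in wild-type cells (log2 fold change 1.39, SE 0.15, edgeR adjusted p = 0.00043). SIX5 fell to 5.96 ± 0.838 FPKM in DKO cells, against 12.1 ± 1.43 in wild-type cells (-0.97, SE 0.17, edgeR adjusted p = 0.0034). EYA2, a transcriptional cofactor with phosphatase activity, had 1 count in the knockout libraries together, in DKO replicate 1, and 250 in the wild-type libraries. Its share in DKO cells was 0.408% of that in wild-type cells (exact 95% counting interval 0.0103 to 2.29%; edgeR adjusted p = 3.2e-05). EYA4 rose to 7.11 ± 1.32 FPKM, against 3.45 ± 0.214 (1.08, SE 0.15, edgeR adjusted p = 0.0012). EYA3 rose by 0.44 (SE 0.10, edgeR adjusted p = 0.011) but was not called without wild-type replicate 1, 2 or 3 (edgeR adjusted p = 0.061, 0.062 and 0.067). Over EYA2, EYA3 and EYA4 the summed level was 13.6 ± 1.59 FPKM in DKO cells and 10.4 ± 0.416 FPKM in wild-type cells.

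The EGR genes share the WT1 type of zinc fingers. EGR3 fell to 0.22 ± 0.01 FPKM in DKO cells, against 2.02 ± 0.308 in wild-type cells (log2 fold change -3.37, SE 0.21, edgeR adjusted p = 3.4e-05). EGR1 had 78.8 ± 7.32 FPKM in DKO cells and 79.3 ± 6.81 in wild-type cells, and EGR2 0.66 ± 0.303 and 0.58 ± 0.03 FPKM in the same order. Both overlapped between the groups and were not called (edgeR adjusted p = 0.83 for EGR1 and 0.58 for EGR2).

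**Figure D2:**
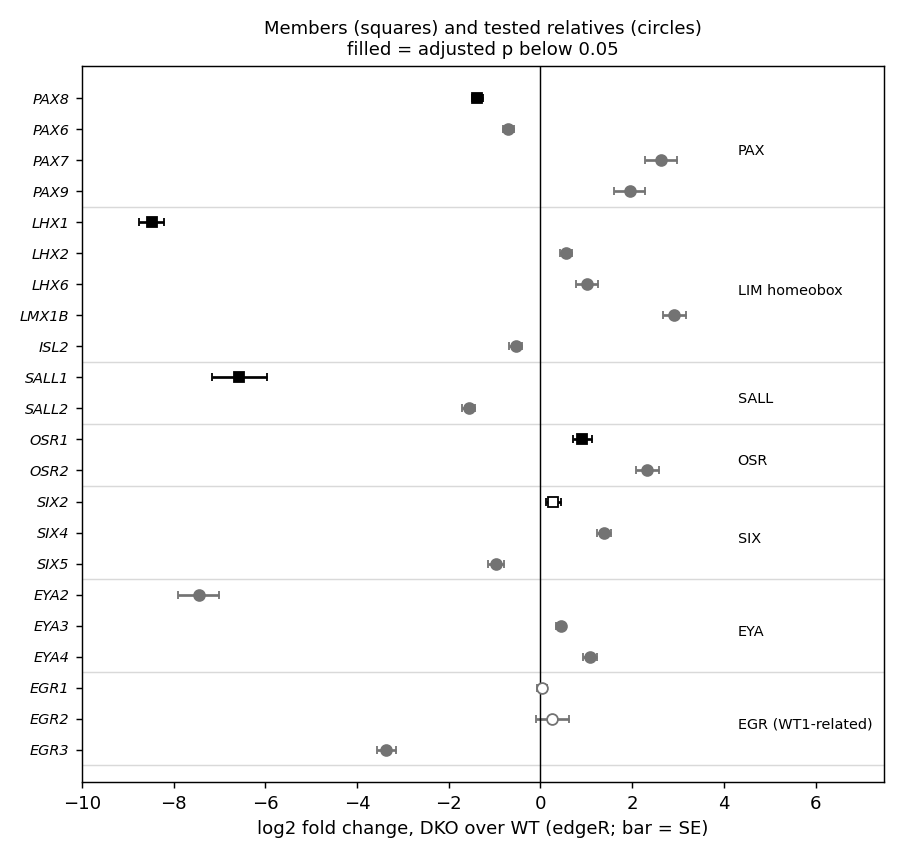
Log2 fold change of DKO over wild type (edgeR, bars are SE) for the 5 tested members (squares) and 17 of their tested relatives (circles), grouped by family. Filled symbols passed an adjusted p below 0.05. LHX1 (-8.48) and SALL1 (-6.57) lie far to the left, with EYA2 the only relative in that range, and LMX1B (2.92) and PAX7 (2.63) lie farthest to the right.

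The list of partners and regulators of these factors showed no common direction. Of 42 genes, 40 had a row and 31 were tested, and 11 were called higher, 10 lower and 10 not called, with a median log2 fold change of -0.02. The share called was 67.7%, against 45.5% of all tested genes. Without DKO replicate 3 the calls were 11 higher and 16 lower of 32, beside the 74.6% called over all genes. GDNF, the growth factor by which metanephric mesenchyme attracts the ureteric bud, had 0 counts in all DKO libraries and 0.27, 0.33 and 0.38 FPKM in the wild-type samples, at least 6.09-fold lower (edgeR adjusted p = 0.0013). NPNT, the nephronectin gene whose product binds integrin at the bud surface, had 1 count in DKO cells, in replicate 3, and 642 in wild-type cells, a share of 0.159% of wild type (exact 95% counting interval 0.00402 to 0.888%; edgeR adjusted p = 7.8e-06). BMP7, a survival factor for nephron progenitors, rose to 19.51, 18.65 and 20.19 FPKM in the DKO samples, against 1.65, 2.17 and 1.9 in the wild-type samples (log2 fold change 3.39, SE 0.15, edgeR adjusted p = 8.7e-06). CITED1, a marker of the least differentiated progenitors, rose to 1.46 ± 0.39 FPKM, against 0.23 ± 0.0458 (2.54, SE 0.33, edgeR adjusted p = 0.00092). CRIM1, which binds BMPs at the cell surface, rose to 218 ± 13.7 FPKM, against 128 ± 2.58 (0.70, SE 0.08, edgeR adjusted p = 0.0004).

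The posterior HOX genes of that list were split. HOXC10 rose to 6.69 ± 1.38 FPKM in DKO cells, against 2.11 ± 0.331 in wild-type cells (log2 fold change 1.70, SE 0.19, edgeR adjusted p = 0.00044). HOXD10 fell to 3.85 ± 0.557 FPKM, against 11.1 ± 0.682 (-1.50, SE 0.13, edgeR adjusted p = 0.00014). LMO4, a LIM-only protein that competes for the LHX cofactor LDB1, fell to 13.1 ± 0.853 FPKM, against 27.1 ± 1.6 (-0.98, SE 0.11, edgeR adjusted p = 0.00052). The chromatin protein gene RBBP7 fell to 134 ± 11.3 FPKM, against 186 ± 4.1 (-0.43, SE 0.08, edgeR adjusted p = 0.0049). TCF21, a factor of kidney mesenchyme and podocytes named here after its values were seen, had 0.44, 0.5 and 1.34 FPKM in the DKO samples and 0 counts in every wild-type library, and was not tested.

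Genes of the ureteric bud and nephric duct, the epithelium in which PAX2, PAX8 and LHX1 act first, were called lower more than higher in the knockout cells. Of 22 listed genes 19 had a row, all were tested, and 2 were called higher, 12 lower and 5 not called, with a median log2 fold change of -0.78, against -0.01 for all tested genes, of which 22.2% were called lower and 23.3% higher. Without DKO replicate 3 the calls were 5 higher and 13 lower, where 38.6% of all tested genes were called lower and 36.0% higher. Genes that passed the filter only through the wild-type samples take part in these counts. The list was written with earlier results of these data known, so the counts are a description. A link of these genes to PAX8 or LHX1 was not tested. WNT11, a signal of the bud tip, had 0.09, 0.12 and 0 FPKM in the DKO samples, against 8.44, 9.49 and 8.72 in the wild-type samples (log2 fold change -7.00, SE 0.38, edgeR adjusted p = 2.1e-05, and -7.69 without DKO replicate 2). EMX2, a homeobox gene needed in the bud epithelium, had 2.45, 2.47 and 1.98 FPKM in the DKO samples, against 20.5, 22.79 and 23.7 in the wild-type samples (-3.24, SE 0.14, edgeR adjusted p = 7.7e-06). Both genes were far apart between the genotypes in every sample.

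HOXB7, expressed along the nephric duct, fell to 2.06 ± 0.357 FPKM in DKO cells, against 11.2 ± 0.288 in wild-type cells (log2 fold change -2.40, SE 0.16, edgeR adjusted p = 4.3e-05). SOX9, a factor of the bud tips, fell to 0.0967 ± 0.0153 FPKM, against 1.06 ± 0.0643 (-3.38, SE 0.23, edgeR adjusted p = 5e-05). CDH16, a kidney cadherin gene named after its values were seen, fell to 1.64 ± 0.297 FPKM, against 3.53 ± 0.188 (-1.06, SE 0.18, edgeR adjusted p = 0.0029). The keratin gene KRT18 fell to 106 ± 14.1 FPKM, against 189 ± 5.92 (-0.78, SE 0.15, edgeR adjusted p = 0.0052), while its partner KRT8 had 451 ± 80.7 FPKM in DKO cells and 508 ± 42.9 in wild-type cells and was not called (edgeR adjusted p = 0.70). KRT8 was called lower without DKO replicate 3 (-0.33). The genes called higher were the ETS factor gene ETV5, with 26.8 ± 1.62 FPKM in DKO cells and 12.1 ± 0.0608 in wild-type cells (1.09, SE 0.10, edgeR adjusted p = 0.00014), and WNT7B, a signal of the collecting duct, with 5.01 ± 0.765 FPKM in DKO cells and 1.32 ± 0.191 in wild-type cells (1.94, SE 0.18, edgeR adjusted p = 0.00018).

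**Figure D3:**
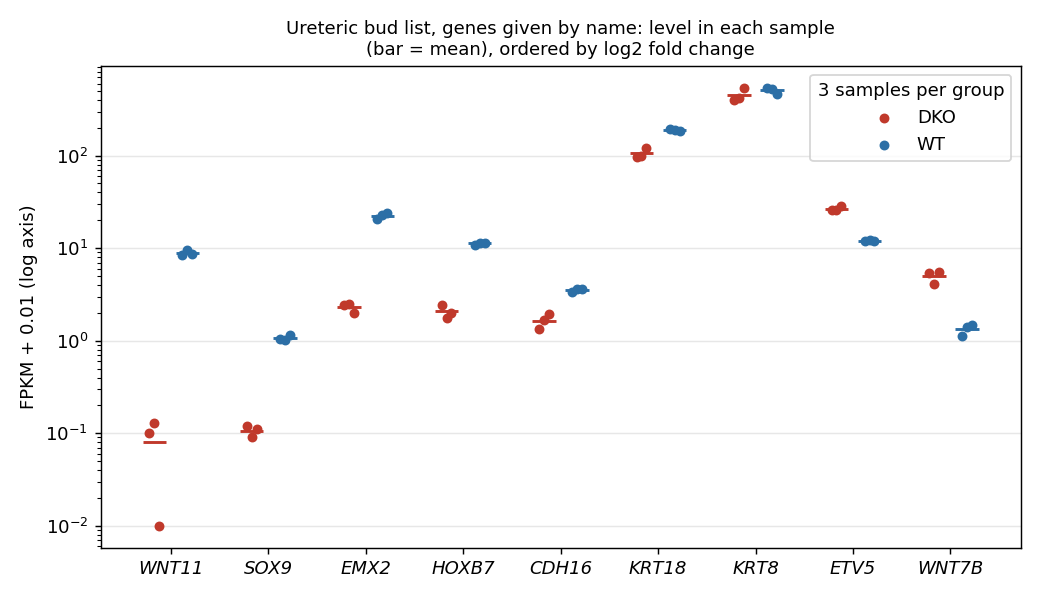
Levels of the 9 genes of the ureteric bud list given by name, in each sample, as FPKM + 0.01 on a log axis, ordered by log2 fold change. Points are samples (DKO left, wild type right, 3 each), bars are means. WNT11, SOX9, EMX2 and HOXB7 lie on the left with DKO samples well below wild-type samples, and ETV5 and WNT7B on the right with DKO samples above.

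Markers of mature nephron segments and stroma did not move in one direction. The share called was 68.8% for podocyte genes, 64.3% for proximal tubule genes, 85.7% for loop, distal tubule and collecting duct genes and 66.7% for stromal genes, where 45.5% of all tested genes were called, and 74.6% without DKO replicate 3. Of 24 podocyte genes all had a row and 16 were tested, with 4 called higher, 7 lower and 5 not called (5 and 9 of 17 without DKO replicate 3; median log2 fold change -0.45). PODXL, the podocalyxin gene, fell to 5.27 ± 0.49 FPKM in DKO cells, against 24.5 ± 1.6 in wild-type cells (-2.17, SE 0.14, edgeR adjusted p = 4.7e-05). FOXC2, a forkhead factor of early podocytes, rose to 20.7 ± 2.94 FPKM, against 1.26 ± 0.0611 (4.07, SE 0.15, edgeR adjusted p = 5.6e-06). NES, the nestin gene, fell to 0.0967 ± 0.0651 FPKM, against 3.63 ± 0.426 (-5.16, SE 0.38, edgeR adjusted p = 7.4e-05, and -5.80 without DKO replicate 3), and VEGFA to 31.1 ± 1.61 FPKM, against 60 ± 3.84 (-0.93, SE 0.09, edgeR adjusted p = 0.00027). The channel gene TRPC6 was called higher from 41 counts in DKO cells and 3 in wild-type cells, a ratio of shares of 13.9 (exact 95% counting interval 4.45 to 70.4; edgeR adjusted p = 0.00032). SEMA3G, a semaphorin gene, was called higher from 118 counts in DKO cells and 5 in wild-type cells (log2 fold change 4.52, SE 0.67, edgeR adjusted p = 0.0016, and 5.18 without wild-type replicate 1). ACTN4, the actin crosslinker gene, had 153 ± 27.6 FPKM in DKO cells and 172 ± 6.87 in wild-type cells and was not called (edgeR adjusted p = 0.55), though it was lower without DKO replicate 3 (-0.32). The scaffold gene MAGI2 was called lower from 1 count in DKO cells, in replicate 2, and 75 in wild-type cells (edgeR adjusted p = 0.0002). NPHS1, a slit diaphragm gene that defines podocytes, was near 0 in both genotypes, with at most 0.01 FPKM in DKO samples and 0.05 FPKM in wild-type samples.

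Of 29 proximal tubule genes 26 had a row and 14 were tested, with 4 called higher, 5 lower and 5 not called (7 and 7 of 16 without DKO replicate 3; median 0.01). PDZK1, a scaffold of brush border transporters, fell to 0.917 ± 0.127 FPKM in DKO cells, against 17.3 ± 1.09 in wild-type cells (log2 fold change -4.20, SE 0.22, edgeR adjusted p = 1.7e-05). The water channel gene AQP1 fell to 1.66 ± 0.301 FPKM, against 7.03 ± 0.442 (-1.998, SE 0.18, edgeR adjusted p = 0.00017), and the injury marker HAVCR1 to 2.32 ± 0.401 FPKM, against 5.66 ± 0.39 (-1.25, SE 0.15, edgeR adjusted p = 0.00059). GGT1 also fell (-2.95, SE 0.53, edgeR adjusted p = 0.0039). SLC5A1, a sodium glucose cotransporter, rose to 1.02 ± 0.347 FPKM, against 0.0667 ± 0.0115 (4.03, SE 0.38, edgeR adjusted p = 0.00021), and CYP27B1, which activates vitamin D, to 3.87 ± 0.354 FPKM, against 1.81 ± 0.312 (1.14, SE 0.17, edgeR adjusted p = 0.0017). The sodium-proton exchanger gene SLC9A3 rose as well (0.89, SE 0.17, edgeR adjusted p = 0.0052). SLC4A4, the sodium bicarbonate cotransporter gene, had 15.1 ± 6.64 FPKM in DKO cells and 13.7 ± 0.824 in wild-type cells and was not called (edgeR adjusted p = 0.71), though it was called higher without DKO replicate 3 (0.48). The endocytic receptor gene LRP2 had 3 counts in DKO cells and 0 in wild-type cells, and HNF4A 0 in DKO cells and 24 in wild-type cells.

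Of 31 genes of the loop, distal tubule and collecting duct, 23 had a row, 18 of these stayed under 1 FPKM in every sample and 7 were tested, with 3 called higher and 3 lower (3 and 4 without DKO replicate 3; median -0.29). POU3F3, a POU factor of the loop and distal tubule in mice, had 0 counts in all DKO libraries and 4.07, 3.49 and 3.69 FPKM in the wild-type samples, at least 37.3-fold lower (edgeR adjusted p = 6.7e-05). CDH1, the E-cadherin gene, had 0.1, 0.07 and 0.09 FPKM in the DKO samples, against 4.78, 4.93 and 4.8 in the wild-type samples (log2 fold change -5.69, SE 0.17, edgeR adjusted p = 4.4e-06). CLDN16 was called lower (-1.63, SE 0.40, edgeR adjusted p = 0.015), but not without wild-type replicate 3 (edgeR adjusted p = 0.058), and its value without DKO replicate 2 was -2.22. EPCAM, another epithelial adhesion gene, rose to 35.78, 38.56 and 21.72 FPKM in the DKO samples, against 13.49, 11.87 and 13.47 in the wild-type samples (1.34, SE 0.20, edgeR adjusted p = 0.0016). IRX3 (2.17, SE 0.25, edgeR adjusted p = 0.00049) and the proton pump gene ATP6V1B1 (1.58, SE 0.31, edgeR adjusted p = 0.0059) rose as well.

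Of 24 genes of the renal stroma 23 had a row and 18 were tested, with 6 called higher, 6 lower and 6 not called (7 and 8 without DKO replicate 3, and 3 and 5 without wild-type replicate 2; median -0.31). The receptor genes PDGFRA and PDGFRB rose, PDGFRA to 16.8 ± 2.65 FPKM in DKO cells, against 0.257 ± 0.0503 in wild-type cells (log2 fold change 6.10, SE 0.20, edgeR adjusted p = 4.4e-06), and PDGFRB to 5.35 ± 0.743 FPKM, against 0.587 ± 0.0513 (3.23, SE 0.18, edgeR adjusted p = 2.3e-05). ECM1 rose to 58.6 ± 9.03 FPKM, against 16.2 ± 1.46 (1.91, SE 0.17, edgeR adjusted p = 0.00015). TAGLN, a smooth muscle gene, rose to 89.2 ± 14.8 FPKM, against 57.3 ± 4.14 (0.70, SE 0.18, edgeR adjusted p = 0.015), and the protocadherin gene FAT4 to 0.253 ± 0.0611 FPKM, against 0.137 ± 0.0208 (0.92, SE 0.21, edgeR adjusted p = 0.012). TAGLN was not called without wild-type replicate 1 or 2 (edgeR adjusted p = 0.064 and 0.065), nor FAT4 without wild-type replicate 2 or 3 (0.057 and 0.053) or with limma on log2(FPKM + 1) (adjusted p = 0.057). The stromal factor gene TBX18 (-2.10, SE 0.15, edgeR adjusted p = 7e-05) and the collagen gene COL1A1 (-2.75, SE 0.20, edgeR adjusted p = 6.1e-05) fell. CXCL12 had 0 counts in all DKO libraries and was at least 10.0-fold lower (edgeR adjusted p = 0.0004).

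**Figure D4:**
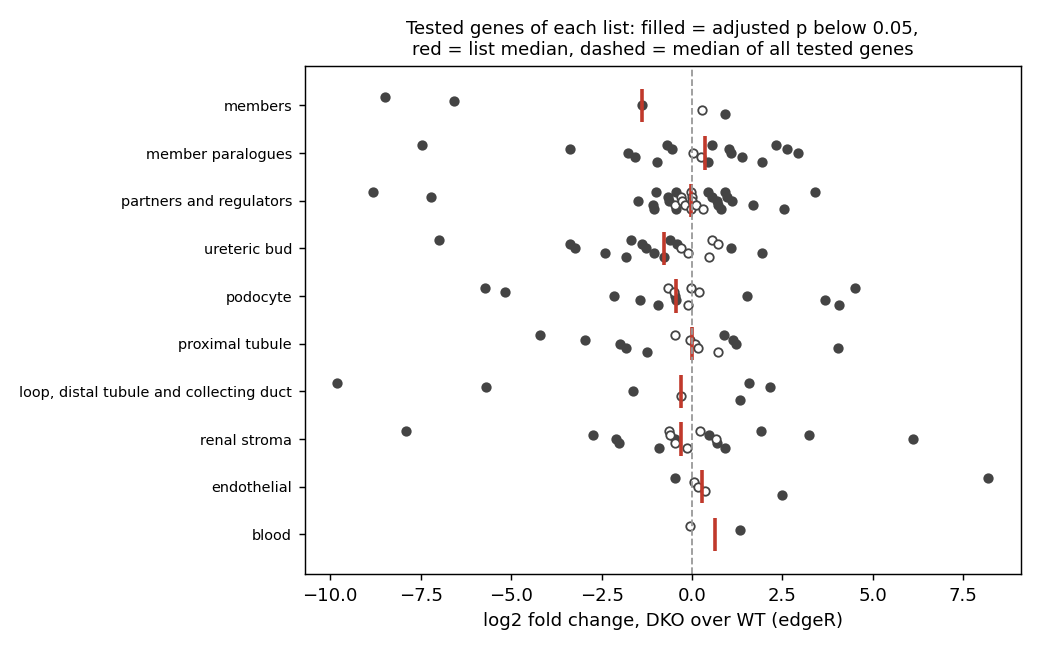
Log2 fold change of DKO over wild type (edgeR) for the tested genes of the members and of 9 lists. Filled points passed an adjusted p below 0.05, red bars are list medians and the dashed line is the median of all tested genes (-0.01). The ureteric bud list has its median at -0.78 with 12 genes called lower and 2 higher, and the other lists spread to both sides.

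Markers of cell types from outside the kidney epithelium were checked in the same libraries. Of 13 endothelial genes with a row, 6 were tested, and the summed level of the list was 47.8 to 58.2 FPKM in DKO samples and 42.6 to 46.8 FPKM in wild-type samples. TEK rose to 15.1 ± 0.386 FPKM in DKO cells, against 0.0467 ± 0.0153 in wild-type cells (log2 fold change 8.18, SE 0.22, edgeR adjusted p = 4.1e-06) and VWF rose to 0.243 ± 0.0651 FPKM, against 0.0433 ± 0.0153 (2.49, SE 0.36, edgeR adjusted p = 0.0014). ENG was called lower (-0.47, SE 0.15, edgeR adjusted p = 0.038) but in no fit without DKO replicate 1 or 2 or any single wild-type sample (edgeR adjusted p from 0.093 to 0.11). EGFL7 had 11.04 ± 2.67 FPKM in DKO cells and 8.997 ± 0.998 in wild-type cells and was not called (edgeR adjusted p = 0.24). The defining genes KDR, ERG and PLVAP had at most 0.03 FPKM in any sample and PECAM1 at most 0.14. Of 8 blood genes with a row, 2 were tested, with a summed list level of 24.1 to 37.0 FPKM in DKO samples and 21.2 to 23.8 FPKM in wild-type samples. LYZ had 21.61, 22.85 and 8.88 FPKM in the DKO samples, against 7.06, 7.71 and 6.85 in the wild-type samples (1.33, SE 0.31, edgeR adjusted p = 0.012), and was not called without wild-type replicate 3 (edgeR adjusted p = 0.051) or with limma on log2(FPKM + 1) without the filter (adjusted p = 0.0505). CD68, a lysosomal gene of macrophages, had 14.0 ± 0.764 FPKM in DKO cells and 15.0 ± 0.927 in wild-type cells and was not called (edgeR adjusted p = 0.78). The leukocyte gene PTPRC had at most 0.01 FPKM in DKO samples and 0.18 FPKM in wild-type samples. The part of other cells in these differences was not tested. In bulk samples, fewer cells with an mRNA and less of that mRNA per cell cannot be told apart.

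Genes nearest to each tested member in level and pattern were found by the Euclidean distance of log2(FPKM + 0.1) over the 6 samples. Only tested genes were searched, without those whose symbol starts with LOC. For LHX1 these were ALDH1A1 (distance 1.12), COL11A1 (1.502) and IGF2BP3 (1.51), which averaged 0.1, 0.01 and 0.113 FPKM in DKO cells and 48.4, 31.6 and 31.4 FPKM in wild-type cells. For PAX8 they were PRDX2 (0.257) and NEU1 (0.315), at 28.4 and 30.9 FPKM in DKO cells and 73.5 and 77.8 FPKM in wild-type cells. For SALL1 they were C8H8orf48 (0.383), TRIM6 (0.400) and SMIM10 (0.444), all without a count in DKO cells and at 0.65 to 0.783 FPKM in wild-type cells. For OSR1 they were SLC2A12 (0.442), ZNF469 (0.490) and CNKSR1 (0.547), and for SIX2 AGBL2 (0.278), PLPPR5 (0.333) and ZNF514 (0.399). LHX1 thus had none of the searched genes as near to it as the nearest genes of the other tested members. Its distances include the spread of its few counts in DKO samples, whereas the genes nearest to SALL1 had no count there. Distances are a description of these 6 samples.

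The genes beside each member on the chromosome were compared with it, using the gene order of RefSeq (mChlSab1.0.hap1) and the 3 nearest tested genes on each side. Of these 42 neighbours 3 were called higher and 10 lower (31.0%), where 45.5% of all tested genes were called (23.3% higher, 22.2% lower). Without DKO replicate 3 the calls were 11 higher and 15 lower, where 74.6% of all tested genes were called (36.0% higher, 38.6% lower). The neighbours of LHX1 and SALL1 did not share the near loss of these genes. AATF, the nearest tested gene before LHX1, had 43.8 FPKM in DKO cells and 43.8 FPKM in wild-type cells, and MRM1, the nearest after it, 7.94 FPKM in DKO cells and 7.12 FPKM in wild-type cells. Farther on that side DHRS11 and GGNBP2 were called lower, DHRS11 at 33.6 ± 2.96 FPKM in DKO cells and 52.2 ± 2.51 in wild-type cells (log2 fold change -0.59, SE 0.13, edgeR adjusted p = 0.010), and GGNBP2 at 19.6 ± 4.51 FPKM in DKO cells and 29.6 ± 0.813 in wild-type cells (-0.56, SE 0.16, edgeR adjusted p = 0.025). GGNBP2 was not called without wild-type replicate 1, 2 or 3 (edgeR adjusted p = 0.077, 0.072 and 0.088). Beside SALL1, CYLD had 4.03 FPKM in DKO cells and 3.93 in wild-type cells, CHD9 had 5.21 and 5.12 FPKM in the same order, and NKD1, a WNT pathway inhibitor, rose (log2 fold change 1.74, SE 0.16, edgeR adjusted p = 0.00019). Beside PAX8, PSD4 fell (-2.10, SE 0.22, edgeR adjusted p = 0.00036) and IL1RN rose (1.35, SE 0.15, edgeR adjusted p = 0.00039).

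Beside OSR1 and WT1 lay genes with 0 or 1 count in the knockout libraries together, while OSR1 was called higher and WT1 overlapped between the genotypes. These genes passed the filter on low counts only through the wild-type samples. Beside OSR1, the potassium channel subunit gene KCNS3 had 1 count in DKO cells, in replicate 3, and 359 in wild-type cells, a share of 0.284% of wild type (exact 95% counting interval 0.00717 to 1.59%; edgeR adjusted p = 1.5e-05). MATN3, a matrilin gene on the other side, had 1 count in DKO cells, in replicate 1, and 53 in wild-type cells, a share of 1.92% (0.0478 to 11.2%; edgeR adjusted p = 0.00044). Beside WT1, PRRG4 had 0 counts in DKO cells and 0.93 ± 0.166 FPKM in wild-type cells, at least 5.44-fold lower (edgeR adjusted p = 0.001). PAX6 is another neighbour of WT1. The neighbour genes given by name were chosen after their values were seen, apart from PAX6.

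**Figure D5:**
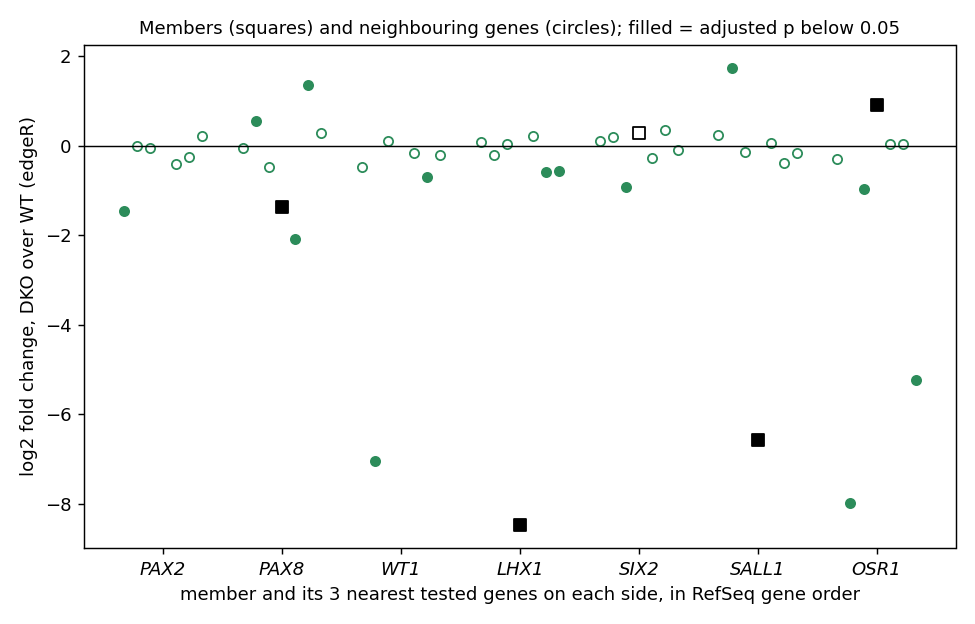
Log2 fold change of DKO over wild type (edgeR) for the tested members (squares) and the 3 nearest tested genes on each side of each of the 7 members (circles, in RefSeq gene order, without distances). Filled symbols passed an adjusted p below 0.05. LHX1 (-8.48) and SALL1 (-6.57) lie far below their neighbours, whereas beside OSR1 and WT1, of which WT1 was not tested and has no square, the lowest circles are KCNS3, MATN3 and PRRG4.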

How the data were processed

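RNA of 6 samples (3 DKO, 3 wild type) was measured by mRNA sequencing. The authors deposited 1 table which, per the file headers, holds estimated counts and FPKM per gene. Per the submitters' processing notes HISAT and Bowtie2 were used in some role. Their versions, the counting program and its strand setting, and the genome are not stated in the sources used here, so overlapping or antisense transcripts cannot be told apart. Another 9 columns, of 3 further samples, were left out. Rounded counts went into edgeR 4.0.16 (R 4.3.3; quasi-likelihood test, TMM, default filter with a minimum count of 10, Benjamini-Hochberg adjustment over 13094 genes). SE is the size of the log2 fold change over the square root of F. Means are of deposited FPKM ± SD. Exact tests used scipy 1.17.1, alternatives limma 3.58.1 and DESeq2 1.42.0, and figures matplotlib 3.10.9. The count test was checked on simulated counts with few changed genes and no outlying library, unlike these data. Groups came from sample titles. Members and the 9 lists were chosen with earlier results of these data known. Named genes were the members, ATL2, ATL3, all tested relatives, up to 4 genes per list and direction with the smallest adjusted p and non-overlapping groups, the 2 of highest level per list, and 3 nearest genes per tested member. A few genes that this rule names are not reported here. LRP2, HNF4A and the defining podocyte, endothelial and leukocyte genes were named after their values were seen, and the neighbour comparison was added then too. Of the table's gene IDs 92.7% matched RefSeq, used for gene order.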

Additional observations from a re-analysis of the deposited data

How the results depend on the processing

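The 3 members called lower were called in all 18 alternatives. Under limma on log2(FPKM + 1) the log2 fold change of LHX1 was -5.00 and that of SALL1 -0.75, since the pseudocount shrinks low levels. The number of members called higher was 0 with DESeq2, at an adjusted p below 0.01, and when a difference of 1 or more on the log2 scale was also asked, and 2 without the filter on low counts (PAX2 then enters) in edgeR or in limma on log2(FPKM + 1). Leaving out single samples gave 1 to 2 higher. The number of all genes called was 9880 without DKO replicate 3 (5959 with all samples; from 4266 over the single samples left out), 3903 at an adjusted p below 0.01 and 2872 when a difference of 1 or more on the log2 scale was also asked. In the member FPKM, exact test: WT1 turned sign, to a log2 ratio of 0.0021, when counts scaled by TMM were used instead of FPKM. The labels do not say whether replicate numbers pair the samples. The deviations of same-numbered samples correlated at 0.0211, -0.284 and -0.290, and not every sample correlated best with its own number. With so few samples and DKO replicate 3 standing apart, these correlations cannot exclude a pairing. With the replicate number as a block 4485 genes were called, and the OSR1 log2 fold change had an adjusted p of 0.0498; EYA3, ISL2, ENG and GGNBP2 were not called among the genes named. Among uncalled genes the EGR1 log2 fold change turned sign with library totals (-0.0031), without the filter (-0.0023), in limma on log2(FPKM + 1) with and without the filter (-0.0089 each) and on log2(FPKM + 0.1) (-0.0090), and ran from -0.037 to 0.093 over the single samples left out. The EGR2 log2 fold change ran from -0.24 to 0.46 there, the KRT8 log2 fold change from -0.33 to 0.010, and the SLC4A4 log2 fold change from -0.039 to 0.48. The cause of these shifts was not tested. Depth limits what can be said of PAX2, WT1 and SALL1. EYA2, NPNT, MAGI2, KCNS3 and MATN3 each had 1 count in DKO cells, and are at 0 there without its library.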
